A study of Drosophila melanogaster with 15 samples.

Results

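The 8 genes described here are pan-neuronal genes of Drosophila melanogaster. The genes elav, fne, Rbp9 and cpo encode RNA-binding proteins, stai and futsch encode proteins that act on microtubules, nrv3 encodes a beta subunit of the sodium pump, and Appl encodes a neuronal membrane protein related to the human amyloid precursor protein. They were chosen by name as genes known from the nervous system, at a time when earlier results of these data were known. All 8 were found by their FlyBase identifiers among the 17558 identifiers of the deposited table. RNA came from progenitor cells of the adult fly midgut that carried green fluorescent protein and were sorted on day 7, in 15 libraries that form 5 groups of 3. The group Ctrl was labelled wild type, and ttk-RNAi was labelled as RNA interference against ttk, which encodes the zinc-finger repressor Tramtrack. In dpn OE the neural progenitor factor Deadpan was overexpressed, in Nicd OE the intracellular domain of Notch, and in seq&Nicd OE the zinc-finger gene seq together with Nicd. Age, tissue, the fluorescent sort and the RNA amplification were shared by all 5 groups, and the labels name no driver line, transgene, sex or sorting day.

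In flies, elav, fne and Rbp9 form the ELAV family, whose proteins bind U-rich stretches of RNA and control splicing, polyadenylation and stability of neuronal transcripts. Stathmin, the product of stai, binds tubulin and shapes microtubule dynamics, while Futsch, the fly relative of the vertebrate protein MAP1B, binds microtubules in axons and at synapses. The midgut epithelium holds stem cells, their enteroblast daughters, absorptive enterocytes and hormone-secreting enteroendocrine cells, and the last share parts of the vesicle and peptide machinery with neurons.

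Levels are FPKM, the reads of a gene divided by its length in kilobases and by the depth of the library, so they can be set side by side between genes. Differences are on log2(FPKM + 1) unless a fold is named, which is a ratio of group means, and a gene was called at a limma adjusted p under 0.05 over the 8209 genes tested. Estimated depth, in units of 1e6 reads, was 51.1 to 56.0 in ttk-RNAi and 24.7 to 38.4 in the other 12 libraries. The share of reads assigned to genes was 56.4% to 65.6% in Ctrl, ttk-RNAi and dpn OE, but 39.6% to 48.9% in seq&Nicd OE and 33.7%, 34.3% and 48.5% in replicates 1, 2 and 3 of Nicd OE. Replicate 3 of Nicd OE stood apart in this way, and several results that rest on it are given with and without it. As a check of the labels, ttk was 3.31-fold higher with the label ttk-RNAi than without manipulation in Ctrl (adjusted p = 0.00089), which goes against that label, so the text speaks of libraries labelled ttk-RNAi. The gene dpn was 2.57-fold higher in dpn OE than in Ctrl (adjusted p = 0.0082). N was not higher in Nicd OE or seq&Nicd OE, and seq was listed at 0 in all 15 libraries, so neither gene bears out these 2 labels. The summed progenitor markers, which include the Notch target gene E(spl)mbeta-HLH, were lower in Nicd OE and seq&Nicd OE than in Ctrl, as given below. The reason was not tested. Nothing states whether the replicates were separate flies or sorts, so a p reflects only how far these libraries differ within groups, possibly for technical reasons.

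The pattern that ran through most of the 8 genes was a high level in the libraries labelled ttk-RNAi and in seq&Nicd OE, an intermediate level in Ctrl, and lower levels in Nicd OE and dpn OE. The summed level of the 8 genes was 865 to 890 FPKM in ttk-RNAi and 818 to 975 in seq&Nicd OE, against 165 to 357 in Ctrl. Nicd OE held 64.0 to 165 FPKM and dpn OE 30.1 to 37.0. The genes nrv3, stai and Appl made up most of the sums in ttk-RNAi and seq&Nicd OE, and cpo and elav had the narrowest ranges on the log2 scale among the 7 tested members. Rbp9 was not tested, as it was under 1 FPKM in every library. The limit was 1 FPKM in at least 3 libraries. In futsch 2 Ctrl libraries reached it and none of Nicd OE or dpn OE, so futsch was tested only through its high libraries in ttk-RNAi and seq&Nicd OE, and counts of members that include it are descriptions.

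**Figure D1:**
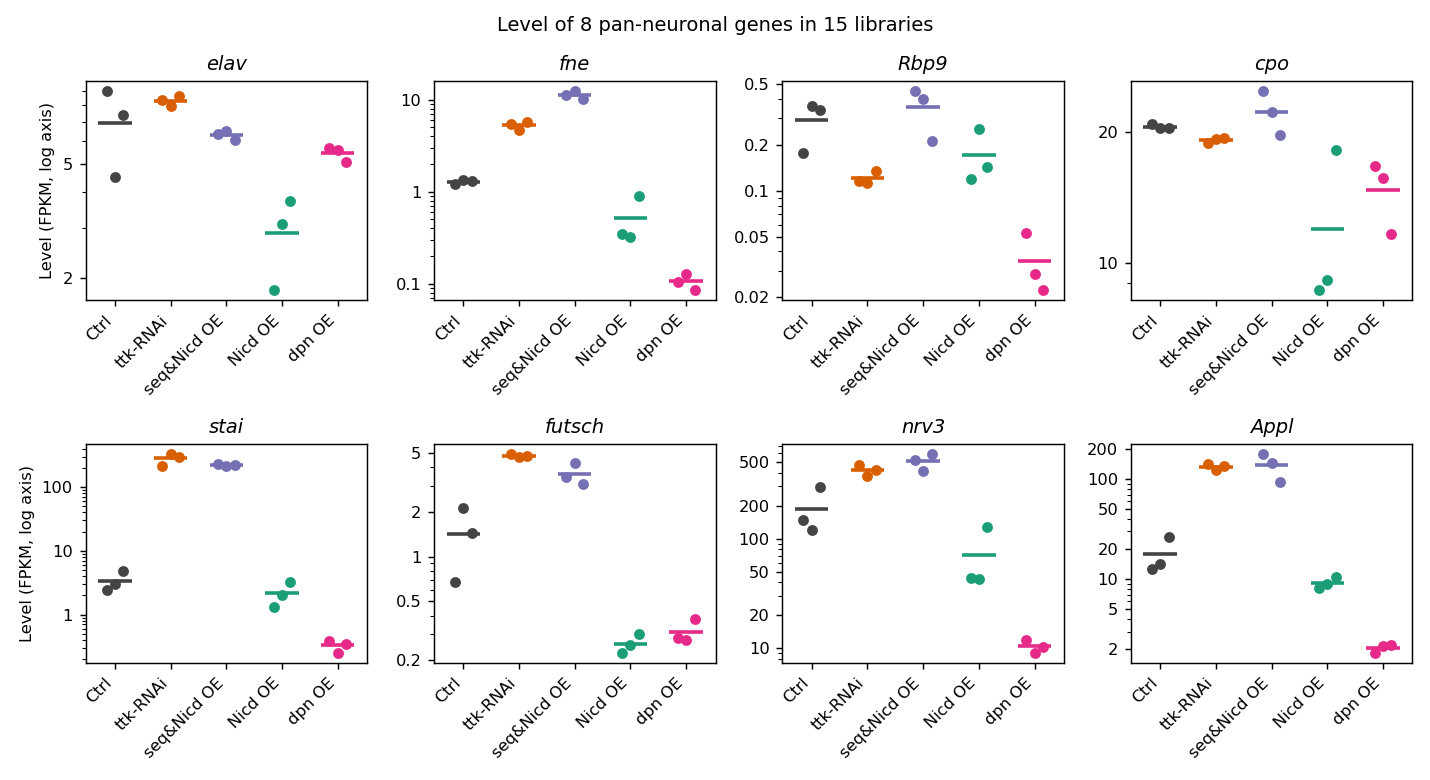
Level of each of the 8 genes in FPKM (log axis, a separate range in each panel) in the 5 groups, with points for libraries and a line for the mean of 3. In fne, stai, futsch, nrv3 and Appl all libraries of ttk-RNAi and seq&Nicd OE lie above those of Ctrl, while elav reaches 8.98 FPKM in Ctrl and cpo stays between 8.67 and 24.8 FPKM.

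The ELAV family was led by elav in Ctrl, dpn OE, Nicd OE and ttk-RNAi, and by fne in seq&Nicd OE. The gene elav (FBgn0260400, BDGP6.54 X:509235-523226, minus strand) encodes the protein whose antibody marks neurons in the fly. Its level was 8.98, 4.51 and 7.43 FPKM in replicates 1, 2 and 3 of Ctrl, 8.35, 7.96 and 8.59 in ttk-RNAi, and 6.36, 6.51 and 6.04 in seq&Nicd OE. In dpn OE it was 5.68, 5.60 and 5.06 FPKM, and in Nicd OE 1.82, 3.09 and 3.72. The libraries of Nicd OE were the only ones all below Ctrl, whose own range enclosed those of ttk-RNAi, seq&Nicd OE and dpn OE. In Nicd OE elav was 2.42-fold lower than in Ctrl (log2 difference -1.03, SE 0.24, adjusted p = 0.0033, and -0.58 with adjusted p = 0.013 after median scaling). Whether fewer cells of a type or less RNA per cell gave such a level cannot be told apart in bulk libraries. The other contrasts with Ctrl were not called, at 0.26 in ttk-RNAi (adjusted p = 0.38, and -0.07 after median scaling), -0.08 in seq&Nicd OE (adjusted p = 0.81, and 0.07 after median scaling) and -0.26 in dpn OE (adjusted p = 0.35). In dpn OE the call depended on the scaling and on a control library, with adjusted p = 0.00096 after median scaling, 0.00077 after quantile normalization and 0.045 without Ctrl replicate 2. Of the exon bases of elav 34.2% are shared with lncRNA:enrr and arg, 6.28% with genes listed in the table, so its level is uncertain to that extent.

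Its relative fne (found in neurons, FBgn0086675, X:12917477-12950417, plus strand) encodes an ELAV-type protein that is mostly cytoplasmic and changed in every group. It stood at 1.22, 1.35 and 1.30 FPKM in Ctrl, at 5.40, 4.68 and 5.70 in ttk-RNAi, and at 11.3, 12.5 and 10.1 in seq&Nicd OE. Nicd OE held 0.346, 0.320 and 0.901 FPKM and dpn OE 0.105, 0.128 and 0.0849, the latter from 26 to 32 reads per library. No library of any group overlapped those of another group. Against Ctrl, fne rose 4.08-fold in ttk-RNAi (log2 difference 1.45, SE 0.17, adjusted p = 3.6e-06) and 8.75-fold in seq&Nicd OE (2.42, SE 0.17, adjusted p = 3.5e-08). It fell 12.2-fold in dpn OE (adjusted p = 0.00012) and 2.47-fold in Nicd OE (adjusted p = 0.01). The fall in Nicd OE was 3.87-fold without its replicate 3, and was not called without its replicate 2 (adjusted p = 0.059) or after median scaling (adjusted p = 0.08). Of the 7 tested members, fne was the only one called between seq&Nicd OE and the libraries labelled ttk-RNAi, 2.15-fold higher in the former, where 7.58% of all genes were higher (adjusted p = 3e-04, and 0.00029 to 0.0027 when each of those 6 libraries was left out).

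Rbp9 (FBgn0010263, 2L:2954762-2968434, plus strand), an ELAV-family gene also needed in the female germline, was the lowest of the 8. It had 0.178, 0.361 and 0.337 FPKM in Ctrl, 0.117, 0.112 and 0.135 in ttk-RNAi, and 0.451, 0.398 and 0.212 in seq&Nicd OE. Nicd OE had 0.120, 0.253 and 0.142 FPKM, and dpn OE 0.0527, 0.0283 and 0.0223, which was 6 to 11 reads per library. In unfiltered data Rbp9 fell 8.47-fold in dpn OE (adjusted p = 0.0033), with 23 reads in all 3 libraries (exact 95% Poisson interval 14.6 to 34.5, counting error only). It was 2.40-fold lower in ttk-RNAi (adjusted p = 0.04), a direction opposite to that of fne in the same libraries, and its ranges overlapped those of Ctrl in the other groups (adjusted p = 0.19 for Nicd OE, 0.56 for seq&Nicd OE). The ELAV family thus held a member without a call in ttk-RNAi, elav, a member that rose, fne, and a member that was lower, Rbp9.

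The RNA-binding gene cpo (couch potato, FBgn0263995, 3R:17919832-18018892, plus strand) encodes a nuclear protein first known from the peripheral nervous system. Its level in Ctrl was 20.8, 20.4 and 20.4 FPKM, and it was 18.8, 19.3 and 19.4 in ttk-RNAi and 24.8, 22.1 and 19.6 in seq&Nicd OE. It was 16.7, 15.7 and 11.6 FPKM in dpn OE and 8.67, 9.18 and 18.1 in Nicd OE, whose replicate 3 lay near the libraries labelled ttk-RNAi. All libraries of ttk-RNAi, dpn OE and Nicd OE lay below those of Ctrl, and those of seq&Nicd OE overlapped them. The fall in Nicd OE was 1.71-fold (log2 difference -0.80, SE 0.25, adjusted p = 0.018), and that call was lost after median scaling (adjusted p = 0.36) and without Nicd OE replicate 1 or 2 (adjusted p = 0.09 and 0.091). Without Nicd OE replicate 3 all 7 tested members were called lower in Nicd OE, cpo among them. The difference in dpn OE was -0.47 (adjusted p = 0.11, 7e-04 after median scaling and 9e-04 after quantile normalization), in ttk-RNAi -0.09 (adjusted p = 0.78) and in seq&Nicd OE 0.10 (adjusted p = 0.78).

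The microtubule gene stai (FBgn0266521, 2L:6100377-6124653, plus strand) spanned the widest range of the 8. Its level was 2.43, 3.07 and 4.76 FPKM in Ctrl, 217, 335 and 294 in ttk-RNAi, and 228, 213 and 219 in seq&Nicd OE. It was 1.32, 2.01 and 3.24 FPKM in Nicd OE and 0.387, 0.251 and 0.347 in dpn OE, where 25 to 44 reads per library were counted. The 6 libraries of ttk-RNAi and seq&Nicd OE lay far above all others and overlapped each other, Nicd OE overlapped Ctrl, and dpn OE lay below both. From a Ctrl mean of 3.42 ± 1.21 FPKM, stai rose 82.4-fold to 282 ± 59.9 in ttk-RNAi (log2 difference 6.01, SE 0.26, adjusted p = 4.7e-11) and 64.4-fold to 220.2 ± 7.61 in seq&Nicd OE (5.68, adjusted p = 4.4e-10). It fell 10.4-fold in dpn OE, to 0.328 ± 0.0699 (adjusted p = 7.6e-05). In Nicd OE the difference of -0.48 was not called (adjusted p = 0.15), but it was without Nicd OE replicate 3 (adjusted p = 0.034).

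The other microtubule gene, futsch (FBgn0259108, X:1409069-1453686, plus strand), moved in the same directions as stai in ttk-RNAi, seq&Nicd OE and dpn OE at far lower levels. It stood at 0.677, 2.14 and 1.44 FPKM in Ctrl, 4.94, 4.66 and 4.75 in ttk-RNAi, and 3.43, 4.26 and 3.11 in seq&Nicd OE. Nicd OE held 0.224, 0.253 and 0.300 FPKM and dpn OE 0.283, 0.274 and 0.379. Ctrl did not overlap any other group, and Nicd OE and dpn OE overlapped each other (adjusted p = 0.81). It rose 3.37-fold in ttk-RNAi (log2 difference 1.30, SE 0.19, adjusted p = 3.8e-05) and 2.53-fold in seq&Nicd OE (0.97, adjusted p = 0.00095). The latter call was lost when only those groups entered the fit (adjusted p = 0.053). It fell 5.48-fold in Nicd OE (adjusted p = 0.0018) and 4.55-fold in dpn OE (adjusted p = 0.0015). Gr2a shares 5.09% of the exon bases of futsch.

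The sodium pump gene nrv3 (nervana 3, FBgn0032946, 2L:21380000-21393319, plus strand) had the highest level of the 8 in every library outside dpn OE, where cpo was higher. Its beta subunit partners the catalytic alpha subunit, which keeps the ion gradients of nerve cells. Its level was 148, 119 and 295 FPKM in Ctrl, 471, 373 and 424 in ttk-RNAi, and 522, 414 and 596 in seq&Nicd OE. It was 43.3, 43.0 and 128 FPKM in Nicd OE and 11.9, 9.07 and 10.4 in dpn OE. All libraries of ttk-RNAi and seq&Nicd OE were above Ctrl, all of dpn OE were below the other groups, and replicate 3 of Nicd OE was within the Ctrl range. The rises were 2.26-fold in ttk-RNAi (log2 difference 1.28, SE 0.38, adjusted p = 0.013, and 0.052 without Ctrl replicate 2) and 2.73-fold in seq&Nicd OE (1.54, adjusted p = 0.0058). The fall in dpn OE was 17.9-fold (-3.93, adjusted p = 3.2e-06), and in Nicd OE 2.62-fold (-1.47, adjusted p = 0.0077), or 4.34-fold without Nicd OE replicate 3.

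Appl (FBgn0000108, X:530501-579044, plus strand), which lies near elav on the X chromosome, encodes a transmembrane protein of neurons that is cut by secretases as its human relative is. It stood at 12.7, 14.3 and 26.5 FPKM in Ctrl, 139.7, 122 and 134 in ttk-RNAi, and 179, 145 and 93.5 in seq&Nicd OE. Nicd OE held 8.18, 8.96 and 10.4 FPKM and dpn OE 1.84, 2.15 and 2.22. The groups ttk-RNAi and seq&Nicd OE overlapped each other, and each other pair of groups was separate. Appl rose 7.39-fold in ttk-RNAi (log2 difference 2.89, SE 0.28, adjusted p = 4.1e-07) and 7.81-fold in seq&Nicd OE (2.92, adjusted p = 9.2e-07), and fell 8.62-fold in dpn OE (-2.55, adjusted p = 6.7e-06). In Nicd OE it fell 1.94-fold (-0.82, adjusted p = 0.028). That call was lost without Ctrl replicate 3 (adjusted p = 0.14), Nicd OE replicate 1 (0.091) or Nicd OE replicate 2 (0.077), and after median scaling (0.53).

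**Figure D2:**
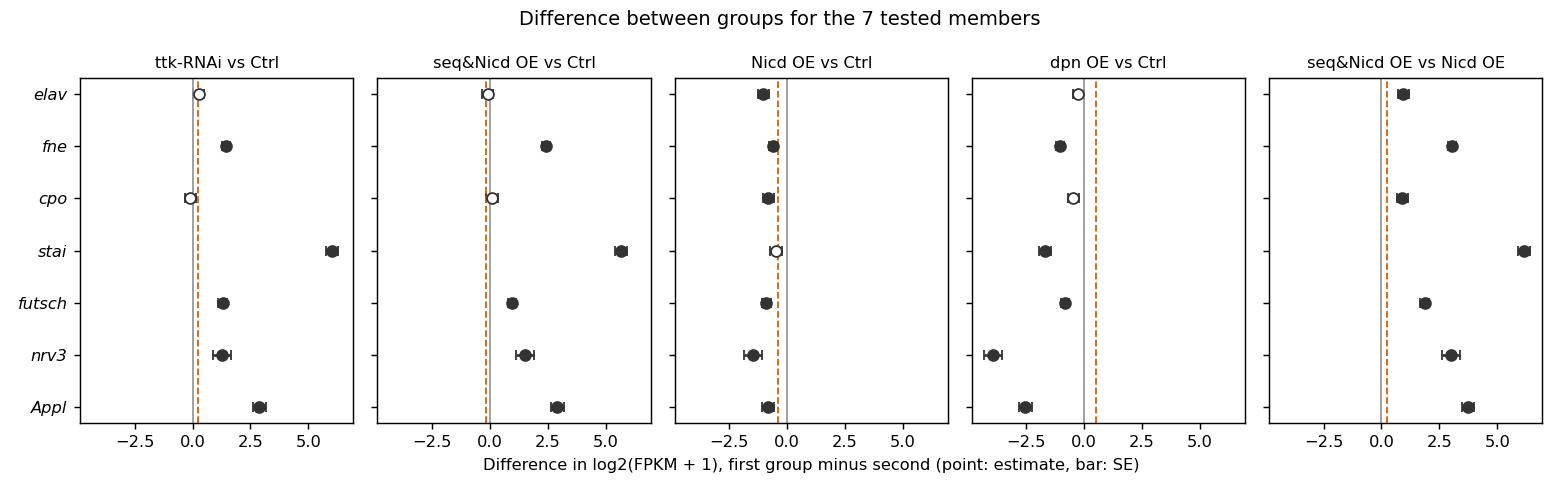
Difference in log2(FPKM + 1) with its SE for the 7 tested members in 5 comparisons, with filled points where the adjusted p is under 0.05 and a dashed line at the median of all 8209 genes. The gene stai stands farthest right in ttk-RNAi (6.01), seq&Nicd OE against Ctrl (5.68) and seq&Nicd OE against Nicd OE (6.16), nrv3 farthest left in dpn OE (-3.93), and the signs of elav in the first 2 panels, 0.26 and -0.08, turn after median scaling.

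Set against all genes, 5 of the 7 tested members rose and none fell in the libraries labelled ttk-RNAi, where 30.7% of all genes tested rose and 13.7% fell. The members' median log2 difference was 1.30 and that of all genes 0.24. With seq&Nicd OE 5 rose and none fell, against 13.3% and 21.2% of all genes, with medians of 1.54 and -0.17. In dpn OE 5 fell and none rose, against 12.5% and 44.6% of all genes, with medians of -1.05 and 0.50. In Nicd OE 6 fell and none rose, against 34.2% and 5.07% of all genes, with medians of -0.82 and -0.40. After each library was scaled to a common median, 5 members rose in ttk-RNAi and in seq&Nicd OE, 7 fell in dpn OE and 3 fell in Nicd OE, the last being elav (adjusted p = 0.013), futsch (0.02) and nrv3 (0.038). Quantile normalization likewise left 3 calls in Nicd OE, without fne (adjusted p = 0.16), Appl (0.41) and cpo (0.23), beside 1380 falls among all genes. With only Ctrl and Nicd OE in the fit 2 calls were left, without elav (adjusted p = 0.077), Appl (0.13), nrv3 (0.075) and cpo (0.13), beside 1317 falls among all genes. The 4 comparisons share the Ctrl libraries, so their values stand side by side and no overlap between them is read. As the members were chosen with earlier results of these data known, the counts beside the all-gene shares are descriptions.

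Between seq&Nicd OE and Nicd OE, groups that share the Nicd label and differ by seq, all 7 tested members were higher with seq, where 15.8% of all genes rose and 3.85% fell. The median log2 difference was 3.004 for these members and 0.22 for all genes. The largest was that of stai, at 220.2 ± 7.61 against 2.19 ± 0.973 FPKM, 100.4-fold (log2 difference 6.16, adjusted p = 1.5e-10). Next came fne at 21.6-fold (adjusted p = 2.4e-09), Appl at 15.1-fold (5.9e-08), futsch at 13.9-fold (1.7e-06) and nrv3 at 7.16-fold (2.2e-05). Without Nicd OE replicate 3 the folds of fne and nrv3 were 33.9 and 11.8, and all 7 tested members were again called higher. The smallest differences were 2.19-fold for elav (adjusted p = 0.0085, and 0.052 without Nicd OE replicate 1) and 1.85-fold for cpo (adjusted p = 0.016). The call of cpo was lost after median scaling (adjusted p = 0.086), with only those groups in the fit (0.073) and without Nicd OE replicate 1 (0.083), Nicd OE replicate 2 (0.087) or seq&Nicd OE replicate 1 (0.057). The ranges of Rbp9 overlapped between these groups (adjusted p = 0.073 in unfiltered data), and its level was higher with seq in each same-numbered pair. The share of reads assigned to genes, was higher with seq in each same-numbered pair, at 44.2% against 33.7%, 39.6% against 34.3% and 48.9% against 48.5% in replicates 1, 2 and 3, and its part in the differences was not tested.

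The order of group means differed from gene to gene. For fne every neighbouring pair was called, in the order seq&Nicd OE, ttk-RNAi, Ctrl, Nicd OE and dpn OE, with the last step at adjusted p = 0.029, a call kept in 2 of the 6 fits that left out a library and reaching 0.15 without Nicd OE replicate 3. For Appl and nrv3 the order was the same, with the highest pair not called (adjusted p = 0.94 and 0.6), and every later step was called. The order of stai was ttk-RNAi, seq&Nicd OE, Ctrl, Nicd OE and dpn OE, with no call between the first pair (adjusted p = 0.31) or between Ctrl and Nicd OE. The means of futsch ran from ttk-RNAi to seq&Nicd OE (adjusted p = 0.15), Ctrl, dpn OE and Nicd OE, the lowest pair not called. In elav the only called step was the last, from dpn OE to Nicd OE, 1.89-fold (adjusted p = 0.0092), and its sign turned after median scaling (log2 difference 0.76 as deposited, -0.25 scaled, adjusted p = 0.21). Without Nicd OE replicate 1 that step had adjusted p = 0.056. No neighbouring step of cpo was called, in the order seq&Nicd OE, Ctrl, ttk-RNAi, dpn OE and Nicd OE, and the step from dpn OE to Nicd OE turned from 0.33 to -0.87 (adjusted p = 0.0034) after median scaling.

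Between the groups at the extremes, stai was 858-fold higher in the libraries labelled ttk-RNAi than in dpn OE (adjusted p = 3.6e-12), Appl 63.7-fold, fne 49.6-fold, nrv3 40.4-fold and futsch 15.3-fold. These 5 were called and elav and cpo were not (adjusted p = 0.062 and 0.19, or 0.0011 and 0.015 after median scaling), where 23% of all genes were higher in ttk-RNAi and 38.8% lower. Of seq&Nicd OE against dpn OE, 6 members were higher, with 15.7% of all genes higher and 55.2% lower, and elav was not called (adjusted p = 0.51, or 0.00032 after median scaling). The gene cpo was called there at adjusted p = 0.048, and it was lost without 5 of the 6 libraries in turn, reaching 0.18 without dpn OE replicate 3. Of ttk-RNAi against Nicd OE all 7 tested members were higher, with 54.2% of all genes higher and 7.38% lower. However, cpo, at 1.60-fold (adjusted p = 0.021), turned to a log2 difference of -0.21 after median scaling (adjusted p = 0.43). It kept its call in 2 of the 6 fits that left out a library, with adjusted p = 0.1 without Nicd OE replicate 1 and 0.00052 without Nicd OE replicate 3. In dpn OE against Nicd OE elav was the only member called higher, which median scaling turned, while fne, Appl, stai and nrv3 were lower, by 4.92-fold, 4.45-fold, 6.68-fold and 6.82-fold, where 60.1% of all genes were higher and 7% lower. The folds of fne and nrv3 there were 3.14 and 4.13 without Nicd OE replicate 3. In seq&Nicd OE against ttk-RNAi, where 37.4% of all genes were lower, no tested member was called lower, and nrv3 and cpo were called in addition after median scaling (adjusted p = 0.049 and 0.014).

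Other RNA-binding genes of the nervous system went both ways in ttk-RNAi, and in the other groups had more falls than rises. Of 18 tested on a list of 22, 5 rose and 4 fell in ttk-RNAi, 1 rose and 7 fell in seq&Nicd OE, and none rose while 7 and 9 fell in dpn OE and Nicd OE. Of all genes 30.7% rose and 13.7% fell in ttk-RNAi, and 13.3% and 21.2% in seq&Nicd OE. In dpn OE 44.6% of all genes rose and 12.5% fell, and in Nicd OE 5.07% and 34.2%. Without Ctrl replicate 2 the falls on this list numbered 7 in ttk-RNAi and 11 in both seq&Nicd OE and dpn OE. Their median log2 difference was -0.21, -0.33, -0.53 and -0.77 in these 4 groups. After median scaling the counts were 3 and 8 in ttk-RNAi and 0 and 15 in dpn OE. Under that scaling 1970 of all 8209 genes rose and 1984 fell in ttk-RNAi, and 1833 and 2045 in dpn OE. In ttk-RNAi shep, which encodes an RNA-binding protein of neuronal remodelling, rose 3.42-fold to 128 ± 3.43 FPKM (adjusted p = 2.9e-05), and brat, which encodes a translational repressor of neural stem cell daughters, fell 2.69-fold to 11.9 ± 1.74 (adjusted p = 0.00026). The same gene brat fell 3.25-fold in seq&Nicd OE (adjusted p = 8.3e-05), and msi, the gene of the RNA-binding protein Musashi, fell 5.69-fold to 1.62 ± 0.320 FPKM there (adjusted p = 3.5e-05). In dpn OE bru3, of the Bruno family of translation and splicing regulators, fell 48.8-fold from 12.3 ± 8.39 FPKM (adjusted p = 6.4e-06), or 30.4-fold without Ctrl replicate 2. With seq added to Nicd, 4 of the 18 were higher and none lower (3 and 3 after median scaling, 7 and 0 without Nicd OE replicate 3), among them bru3 at 10.4 ± 0.358 against 2.27 ± 0.937 FPKM (4.60-fold, adjusted p = 0.00088). In that comparison 15.8% of all genes were higher and 3.85% lower, or 1087 and 1071 of 8209 after median scaling.

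Other cytoskeletal genes, to set beside stai and futsch, were taken from a list of 25 genes of microtubules and axons, of which 22 were tested. In ttk-RNAi 11 rose and 2 fell, and their median log2 difference was 0.53 against 0.24 for all genes. With median scaling 7 rose and 3 fell, and of all genes 30.7% rose and 13.7% fell as deposited. The rises included Nrg, which encodes the adhesion protein Neuroglian of axon bundles, 3.63-fold to 249 ± 13.4 FPKM (adjusted p = 9.3e-05), and shot, which encodes a spectraplakin linking actin to microtubules, 3.11-fold (adjusted p = 0.00018). Of the same list 3 rose and 4 fell in seq&Nicd OE, with a median of -0.31, beside 13.3% and 21.2% of all genes. Without Ctrl replicate 2 the falls numbered 10 in seq&Nicd OE and 14 in Nicd OE. In dpn OE 4 rose and 7 fell (2 and 12 after median scaling), among the latter ens, which encodes a cofactor of kinesin, 4.12-fold lower (adjusted p = 0.00064). Among all genes 44.6% rose and 12.5% fell in dpn OE, and 5.07% and 34.2% in Nicd OE. In Nicd OE 2 of the list rose and 9 fell (6 and 4 after median scaling). One of the rises there was unc-104, which encodes the kinesin that carries synaptic vesicle precursors, 12.3-fold higher at 42.1 ± 8.40 against 3.44 ± 1.04 FPKM (adjusted p = 1.3e-06). It also rose 3.07-fold in ttk-RNAi (adjusted p = 0.00093) and 4.66-fold in seq&Nicd OE (adjusted p = 8.4e-05). In seq&Nicd OE against Nicd OE unc-104 was 2.63-fold lower (adjusted p = 0.0027), where 4 other genes of the list were higher and no other was called lower. After median scaling 3 of the list were higher and 3 lower, and of all genes 15.8% were higher and 3.85% lower as deposited.

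Of 7 other sodium pump genes 3 passed the limit on low values, and the 2 called against Ctrl were Atpalpha and nrv1. Atpalpha, the gene of the catalytic alpha subunit, was at 80.2 ± 23.8 FPKM in Ctrl and rose 1.79-fold in ttk-RNAi (adjusted p = 0.007) and 1.91-fold in seq&Nicd OE (adjusted p = 0.005). It fell 2.33-fold in dpn OE (adjusted p = 0.00076). The beta subunit gene nrv1 was at 69.1 ± 22.2 FPKM in Ctrl, rose 1.95-fold in ttk-RNAi (adjusted p = 0.0028) and 1.60-fold in seq&Nicd OE (adjusted p = 0.028, or 0.1 without seq&Nicd OE replicate 1), and fell 2.31-fold in dpn OE (adjusted p = 0.00082). The subunit genes Atpalpha and nrv1 were therefore called in the same direction as nrv3 in these 3 comparisons, by smaller folds. The third tested gene was not called in them. Of all genes 30.7% rose in ttk-RNAi, 13.3% rose in seq&Nicd OE and 12.5% fell in dpn OE. In seq&Nicd OE against dpn OE, where nrv3 was higher, 2 of the 3 were called higher and 1 lower. There 15.7% of all genes were higher and 55.2% lower. None of the 3 was called in Nicd OE, although 1 was called higher after median scaling and 2 lower without Ctrl replicate 2. Of all genes 5.07% rose and 34.2% fell in Nicd OE, or 1490 and 1515 of 8209 after median scaling. In seq&Nicd OE against Nicd OE Atpalpha was 2.62-fold higher (adjusted p = 0.00035) and the other 2 were not called, 1 of the 3 being called lower after median scaling. Here 15.8% of all genes were higher and 3.85% lower, or 1087 and 1071 of 8209 after median scaling.

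Genes that process Appl or bind it were mixed. Of 9 tested on a list of 12, 3 rose and 1 fell in ttk-RNAi, 3 rose and 2 fell in seq&Nicd OE, 2 rose and 5 fell in dpn OE, and none rose and 5 fell in Nicd OE. The share that rose in ttk-RNAi was near the 30.7% of all genes, of which 13.7% fell. In seq&Nicd OE 13.3% of all genes rose and 21.2% fell. The shares were 44.6% and 12.5% in dpn OE, and 5.07% and 34.2% in Nicd OE. After median scaling none rose and 6 fell in dpn OE, and 1 rose and 3 fell in Nicd OE. The falls in seq&Nicd OE numbered 0 to 3 with each library left out. Adaptor genes led the rises in ttk-RNAi: X11Lbeta, whose product is of the X11 family that binds Appl, rose 6.70-fold to 11.7 ± 0.426 FPKM (adjusted p = 1.3e-07). The scaffold gene Aplip1, named for its product's binding to Appl, rose 4.40-fold to 5.73 ± 0.205 FPKM (adjusted p = 2.1e-06). Like futsch, Aplip1 was tested only through its high libraries in ttk-RNAi and seq&Nicd OE, so its rise is a description. In seq&Nicd OE X11Lbeta rose 4.27-fold (adjusted p = 8.3e-06), and against Nicd OE it was 15.03-fold higher (adjusted p = 1.1e-07), where 3 genes of the list were higher and none lower. Against Nicd OE 15.8% of all genes were higher and 3.85% lower. The metalloprotease gene kuz, whose human relative acts as an alpha-secretase, fell 3.04-fold in dpn OE (adjusted p = 0.002) and 2.27-fold in seq&Nicd OE (adjusted p = 0.022, or 0.11 without Ctrl replicate 3).

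As a side reference, 11 of 14 listed genes of transmitter release were tested. In ttk-RNAi 5 rose and 2 fell, in seq&Nicd OE 7 rose and 1 fell, and none rose while 8 and 9 fell in dpn OE and Nicd OE (11 and 1 after median scaling). Of all genes 30.7% rose in ttk-RNAi and 13.3% in seq&Nicd OE, while 12.5% fell in dpn OE and 34.2% in Nicd OE. The rises in ttk-RNAi numbered 3 after median scaling and 3 to 5 with each library left out. Cadps, which acts in the release of dense-core vesicles, rose 5.75-fold in ttk-RNAi (adjusted p = 2e-07) and 8.70-fold in seq&Nicd OE (adjusted p = 4.4e-08). The calcium sensor gene Syt1 fell 6.35-fold in ttk-RNAi (adjusted p = 3.6e-06) where stai and Appl rose. In seq&Nicd OE against Nicd OE 10 of the 11 were higher and none lower, with a median log2 difference of 1.87. Of all genes 15.8% were higher there and 3.85% lower.

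Markers of other cells moved between groups as well. The summed level of 12 enteroendocrine markers was lowest in ttk-RNAi, at 1007 to 1150 FPKM, and highest in Ctrl, at 12867 to 62298. It was 5089 to 7757 FPKM in seq&Nicd OE, 3207 to 4854 with Nicd alone and 3081 to 4715 in dpn OE. Of these 12, 1 rose and 6 fell in ttk-RNAi, 3 rose and 6 fell in seq&Nicd OE, 2 rose and 8 fell in Nicd OE, and none rose and 9 fell in dpn OE. Among all genes, to be set beside each marker list here, 30.7% rose and 13.7% fell in ttk-RNAi, and 13.3% and 21.2% in seq&Nicd OE. The shares were 5.07% and 34.2% in Nicd OE, and 44.6% and 12.5% in dpn OE. Most of the sum in Ctrl was NPF, which encodes a gut peptide hormone, at 29628 ± 24774 FPKM against 396 ± 18.2 in ttk-RNAi. By the median log2 difference of the 12, seq&Nicd OE was highest, at -0.81, followed by ttk-RNAi at -1.25, Nicd OE at -1.54 and dpn OE at -2.73. The enteroendocrine factor gene pros was 15.9-fold lower in dpn OE (adjusted p = 4.9e-07) and 5.55-fold lower in Nicd OE (adjusted p = 5.3e-06), and was not called in ttk-RNAi (adjusted p = 0.71) or seq&Nicd OE (0.31). The summed level of 6 matched progenitor markers was 183 to 213 FPKM in seq&Nicd OE, 225 to 275 with Nicd alone and 369 to 381 in ttk-RNAi, against 653 to 822 in dpn OE and 700.4 to 1353 in Ctrl, and each was at 1 FPKM or more in every library. The Notch target gene E(spl)mbeta-HLH was a large part of it, at 662 ± 329 FPKM in Ctrl and 51.1 ± 3.52 in ttk-RNAi. In Nicd OE and seq&Nicd OE the sum of all 6 lay below that Ctrl mean of E(spl)mbeta-HLH. Of the 6, 1 rose and 1 fell in ttk-RNAi, with a median log2 difference of -0.03, and 2 rose and 1 fell in dpn OE. None rose while 4 fell in seq&Nicd OE and 5 with Nicd alone, the former 2 to 5 with each library left out. Enterocyte markers, 6 genes, summed to 83.3 to 114 FPKM in ttk-RNAi, where 1 rose and 4 fell, and to 525 to 639 in dpn OE, where 3 rose and none fell, against 154 to 432 in Ctrl. The share of them that rose in dpn OE was near the 44.6% of all genes. None of the 6 was called in Nicd OE or seq&Nicd OE. The part of these cell markers in the levels of the 8 genes was not tested.

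Genes that define mature neurons of a given transmitter stayed low where the pan-neuronal genes were high. ChAT, VGlut, Gad1 and Vmat, which mark cholinergic, glutamatergic, GABAergic and monoaminergic neurons, summed to 0.834 to 0.867 FPKM in ttk-RNAi, 0.598 to 0.822 in seq&Nicd OE and 0.860 to 3.99 in Ctrl. In Nicd OE and dpn OE the sum was 0.123 to 0.273 and 0.272 to 0.795 FPKM. None of the 4 reached 1 FPKM outside Ctrl, where Gad1 reached 3.79. Among 5 glial markers, repo stayed at 0.383 FPKM or lower in every library, gcm had a mean of 1.91 ± 1.57 FPKM in seq&Nicd OE against 0.0249 ± 0.0113 in Ctrl, wrapper stayed at 0.469 or lower, and moody was between 65.8 and 228.6 FPKM in all libraries. The fifth, Gs2, which encodes a glutamine synthetase, went the way of most of the 8 genes, from 7.66 ± 2.05 FPKM in Ctrl to 17.7 ± 0.157 in ttk-RNAi (adjusted p = 0.0064) and 17.5 ± 3.67 in seq&Nicd OE (adjusted p = 0.01). It fell to 2.99 ± 2.13 FPKM in dpn OE (adjusted p = 0.0031) and 3.49 ± 0.277 in Nicd OE (adjusted p = 0.025), and its part in the levels of the 8 genes was not tested. The 4 haemocyte markers stayed at 0.168 FPKM or lower. Of 6 visceral muscle markers 2 were tested, and 1 rose and 1 fell in both ttk-RNAi and seq&Nicd OE. Mhc stayed at 0.0712 FPKM or lower, while Mlc1 rose to 3.76 ± 0.163 FPKM in ttk-RNAi (adjusted p = 1.6e-05) and 8.12 ± 5.14 in seq&Nicd OE (adjusted p = 1e-06) from 0.140 ± 0.0804 in Ctrl, and it was tested only because of those groups.

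**Figure D3:**
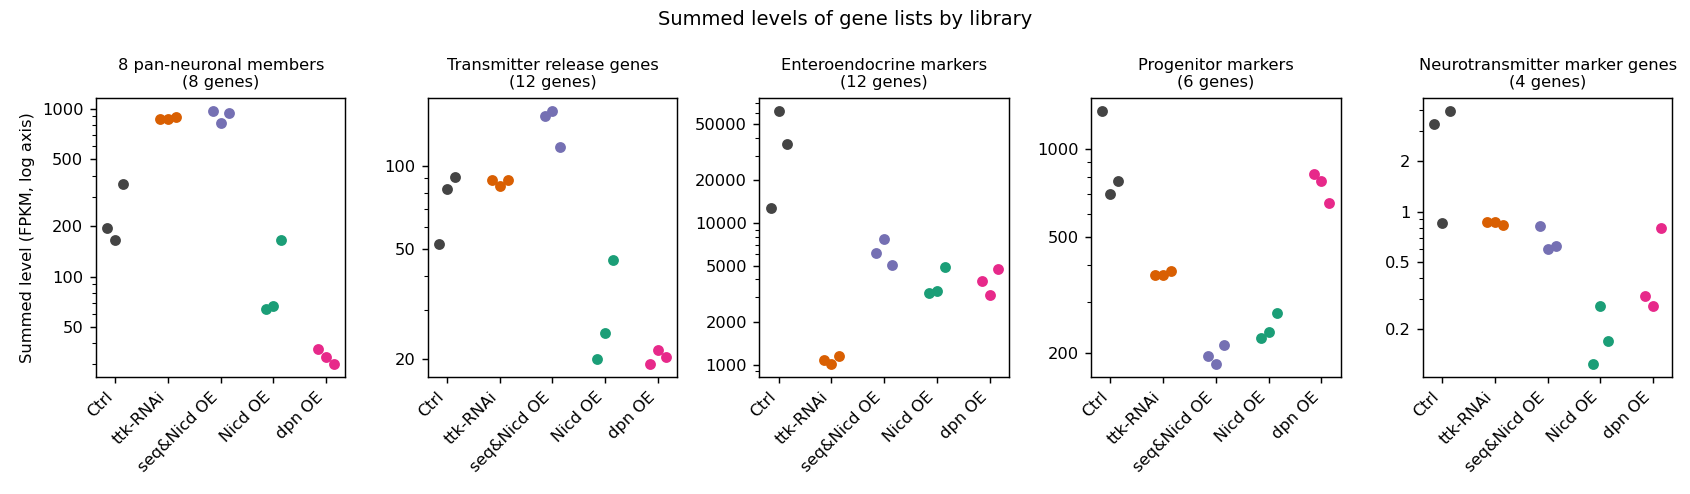
Summed FPKM per library (points, log axes with a separate range in each panel) of the 8 pan-neuronal genes, 12 genes of transmitter release, 12 enteroendocrine markers, 6 progenitor markers and 4 neurotransmitter markers. The 8 genes sum to 865 to 890 FPKM in ttk-RNAi, where enteroendocrine markers sum to 1007 to 1150 FPKM, the lowest of the 5 groups.

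Finally, the genes whose pattern was most like that of each tested member were sought by the root mean square difference of log2(FPKM + 1), each gene centred on its mean over the 15 libraries. The libraries share group, depth and preparation, so this is a description of these libraries alone. For futsch the nearest genes were Aplip1, at a difference of 0.19, and tau, at 0.21, with tau at 4.47 ± 0.366 FPKM in ttk-RNAi, 2.48 ± 0.505 in seq&Nicd OE, 1.35 ± 1.10 in Ctrl and 0.266 ± 0.0409 in Nicd OE. For Appl they were CG5065, at 0.23, which ran from 37.1 ± 1.42 FPKM in ttk-RNAi to 0.173 ± 0.0324 in dpn OE, and CG6329, at 0.48. For fne they were dpr19, at 0.26, and CG34007, at 0.27, both highest in seq&Nicd OE, at 9.44 ± 0.502 and 8.91 ± 3.03 FPKM. Nearest to stai were VhaAC45RP at 0.73 and sff at 0.76, on a range of stai itself of 8.07, against a range of 2.28 for futsch. This measure grows with the range of a gene, so its values are not ranked between members. Nearest to nrv3 were VhaM9.7-a at 0.50 and tna at 0.57, to cpo eIF4G2 at 0.22 and nmo at 0.23, and to elav asRNA:CR44029 at 0.17 and Septin4 at 0.22. The small values of elav and cpo go with their small ranges over the 15 libraries, 1.82 and 1.41, and asRNA:CR44029 shares 13.1% of its exon bases with other genes.

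**Figure D4:**
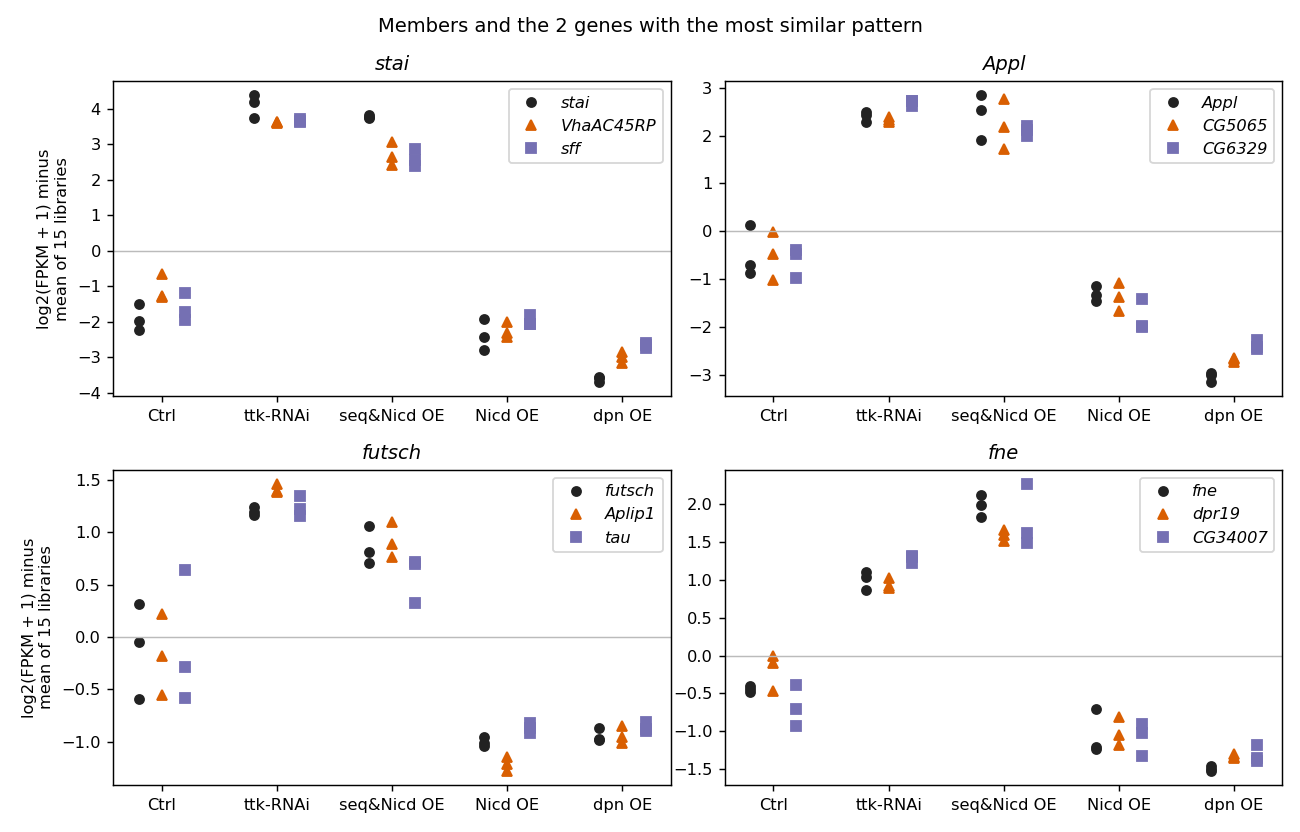
log2(FPKM + 1) minus each gene's mean over the 15 libraries, for stai, Appl, futsch and fne and the 2 genes with the most similar pattern, with points for libraries in 5 groups. The genes CG5065 and Appl lie close in every group, at a root mean square difference of 0.23, while VhaAC45RP and sff stay inside the range of stai, at 0.73 and 0.76.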

How the data were processed

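The deposited table gave FPKM per gene and library, made by the authors from reads aligned with STAR 2.6.1a to BDGP6, with DESeq2 also named, per the submitters' processing notes. How reads were counted, and whether strand was used, is not given in the sources used here. Of the identifiers 17252 matched the annotation BDGP6.54 and 306 did not, and the latter stayed in the tests. Depth was estimated from the steps of low values, 98% of which were whole reads within 0.02 reads. Tests took the genes that reached an FPKM of 1 in 3 or more libraries, on log2(FPKM + 1), which understates changes of low genes, with limma 3.58.1 in R 4.3.3. The fit had 5 group means, 15 libraries, a variance trend and 10 residual degrees of freedom, and was two-sided with Benjamini-Hochberg adjustment per comparison. Calls were made at an adjusted p under 0.05. Alternatives were another pseudocount or filter, median scaling, quantile normalization, a replicate block, only the groups compared, and each library left out.

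Named were the 8 members, for each list up to 3 called genes with the largest log2 change and a group mean of at least 5 FPKM, the 2 genes most like each tested member, and the genes in the labels. Marker genes of other cells came from lists of their own. Members and lists were chosen with earlier results of these data known. Same-numbered libraries of seq&Nicd OE and Nicd OE deviated together (correlations across genes of 0.20, 0.21 and 0.43), so their numbers were taken to pair them. No other comparison met that rule. No label gives this pairing, which was drawn from the same values, and the main fit did not use it. Replicate 3 had the highest share of assigned reads in both groups, and the part of this in the correlations was not tested. With the block in a fit of those groups alone, 2502 genes and 7 members were called. Without the block the fit of those groups alone called 1382 genes and 6 members. The main fit of all 15 libraries called 1611 genes and the same 7 members.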

Additional observations from a re-analysis of the deposited data

How the results depend on the processing

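Of 457 values of single members under other settings, in the 4 comparisons with Ctrl and in seq&Nicd OE against Nicd OE, 422 kept their direction and side of the threshold, 24 lost and 6 gained a call, and 5 turned, all of elav and none of them called. These log2 differences from Ctrl were -0.0742 and -0.0608 in ttk-RNAi with median scaling and quantile normalization, and 0.0705 and 0.0735 in seq&Nicd OE. Without each library in turn the last ran from -0.330 to 0.0983. Among the other pairs of groups, median scaling turned elav, futsch and cpo in dpn OE against Nicd OE, cpo in ttk-RNAi against Nicd OE, and elav, stai and futsch in seq&Nicd OE against ttk-RNAi, and of these turned values that of cpo in dpn OE against Nicd OE was called. Members called in Nicd OE numbered 3 with median scaling, 3 with quantile normalization and 2 with only the groups compared, against 6. Without each library in turn, the members called against Ctrl numbered 4 to 5 (ttk-RNAi), 5 to 6 (dpn OE), 3 to 7 (Nicd OE) and 5 (seq&Nicd OE), and 5 to 7 between seq&Nicd OE and Nicd OE. The lowest in Nicd OE was without its replicate 2. For all genes, in the same order, these ranges were 2936 to 3862, 3924 to 4883, 2166 to 4100, 2075 to 3428 and 1202 to 1901. A filter of 5 FPKM left 2329 calls of 3638 in ttk-RNAi, 3079 of 4686 in dpn OE, 1792 of 2832 in seq&Nicd OE and 912 of 1611 in seq&Nicd OE against Nicd OE, with fewer genes tested. Only the groups compared gave 1512 calls of 3227 for Nicd OE and 1408 for seq&Nicd OE, from fewer libraries. Median scaling moved the split of rises and falls from 2517 and 1121 to 1970 and 1984 (ttk-RNAi), from 3658 and 1028 to 1833 and 2045 (dpn OE), from 416 and 2811 to 1490 and 1515 (Nicd OE), from 1092 and 1740 to 1643 and 1668 (seq&Nicd OE), and from 1295 and 316 to 1087 and 1071 (seq&Nicd OE against Nicd OE). A replicate block over all 15 libraries changed no count of members and gave 1599 genes in seq&Nicd OE against Nicd OE. With the block and only those groups, a setting chosen after seeing the data, 2502 genes were called, from 1996 rises and 506 falls. The cause of these shifts was not tested. Depth limits Rbp9 most, at 6 to 11 reads per library in dpn OE.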
